A study of Mus musculus with 4 samples.

Results

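Nuclear receptors and their coregulators, 37 genes taken by name with PPARs, Esrra and the clock receptors left out, were described in the gonadal white adipose tissue (WAT) of FSP27-deficient mice. Of these, 33 had at least 1 probe set annotated with their symbol alone, 62 probe sets in all of 22690 on the array. Nr1h2, Nr3c2, Ep300 and Ncor1 had none and were not analysed here. The samples were gonadal WAT of male C57BL/6J mice of 3 months, either FSP27-deficient (labelled Fsp27 knockout) or wild-type. FSP27, the product of Cidec, is a protein of the lipid droplet. For each genotype the RNA of 5 mice was pooled (45 μg) and measured on duplicate Affymetrix arrays, giving 2 FSP27-deficient and 2 wild-type arrays. The study's text states that each pooled sample was hybridized in duplicate, which was read here as 1 RNA pool per genotype. Nothing gives the duplicates as separate mice. On that reading p-values measure technical spread between these arrays and not the spread between mice. With 4 arrays, exact permutation (two-sided) can reach no p lower than 0.333.

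Nuclear receptors are transcription factors that bind DNA and, in many cases, a small lipid-soluble ligand, and they work with coactivators and corepressors that open or close chromatin. The retinoid X receptors (RXRs) are the common partner of the receptors for oxysterols, bile acids, retinoic acid, thyroid hormone and vitamin D. Steroid receptors bind DNA as homodimers, and orphan receptors are those first found without a known ligand. In adipose tissue these proteins are known for their roles in adipocyte differentiation, lipid synthesis and thermogenesis.

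The values are GCOS signals, an intensity on a linear scale. The brightest probe set stood for each gene, and 26 of the 33 genes had the mean signal of 100 or more required for the test, among 8523 genes in all. A log2 ratio is the difference, FSP27-deficient minus wild-type, of log2(signal + 16), and it understates the change of dim genes. It is given with its standard error (SE) or 95% interval, and p-values are from limma, adjusted by Benjamini-Hochberg over the 8523 genes. Array medians were 181 and 165 in FSP27-deficient WAT and 193 and 172 in wild-type WAT. Cidec itself gave 8564 and 8949 in FSP27-deficient WAT against 20491 and 18255 in wild-type WAT, and the sources used here do not place its probe set relative to the deletion. The adipocyte markers Adipoq and Fabp4 had signals between 43790 and 62522 on all arrays. In whole tissue, fewer cells of a type and less RNA per cell cannot be told apart.

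Rxrg and Nr1h3 were the genes of the set called by limma in the WAT of FSP27-deficient mice, both higher. They were 2 of 26 genes tested (7.69%), where 5.78% of all genes tested were called higher. Rxrg passed the filter through the FSP27-deficient arrays, and with no filter on low signals Nr1h3 alone was called. None of the 26 was called lower by limma, where 6.51% of all genes tested were, and none was lower at an unadjusted p under 0.05 by limma or by the t-test that the methods name. At that unadjusted level limma had 4 of the 26 higher (Rxrg, Nr1h3, Nr2c2 and Ncoa4) and the t-test 1, Nr1h3. Of all 8523 genes tested, 2158 were at that level by limma and 1309 by the t-test, higher or lower. Fitted without a trend of the spread on the signal, limma called neither Rxrg (adjusted p = 0.096) nor Nr1h3 (adjusted p = 0.12). The median log2 ratio was 0.02 over the 26 genes and -0.08 over all genes tested. The median size of the change, whatever its sign, was 0.35 for the 26 genes and 0.35 for all genes tested.

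Promoter windows of Rxrg and Nr1h3 are shown because both genes rose. Nuclear receptors that pair with RXR commonly bind copies of the element AGGTCA. From RefSeq's table for GRCm38.p6, 50 promoter windows of 33 of the 37 genes were used, each from 250 bases before to 50 after a transcription start. No window of Nr3c1, Thra, Ncoa2 or Ncoa3 was used, which does not show that the table lacks them. AGGTCA, searched on both strands, is in capitals below. It starts 88 bases before the second Rxrg start, where it is the end of the longer element AAAGGTCA, which receptors of the NR4A group bind. AGGTCA was not among the letters of the window at the first Rxrg start (not shown) or of either Nr1h3 window.
Rxrg promoter, chr1:167618015-167618314, plus strand: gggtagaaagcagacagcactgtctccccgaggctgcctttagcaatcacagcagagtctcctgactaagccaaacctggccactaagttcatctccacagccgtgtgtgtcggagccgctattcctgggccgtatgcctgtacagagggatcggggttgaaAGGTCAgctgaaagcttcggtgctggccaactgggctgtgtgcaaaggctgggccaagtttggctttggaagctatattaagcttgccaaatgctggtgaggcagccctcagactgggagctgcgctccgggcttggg
Nr1h3 promoter, chr2:91195067-91195366, minus strand: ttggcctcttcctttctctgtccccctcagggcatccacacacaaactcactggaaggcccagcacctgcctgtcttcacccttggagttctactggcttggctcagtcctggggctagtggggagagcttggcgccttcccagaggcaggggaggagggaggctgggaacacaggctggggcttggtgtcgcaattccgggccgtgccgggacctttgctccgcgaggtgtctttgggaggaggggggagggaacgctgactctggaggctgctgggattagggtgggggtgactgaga
AGGTCA was found in 9 of the 50 windows of the set (18%) and in 16.3% of 32851 windows of all genes. AAAGGTCA was found in 2 of the 50 windows (4.0%), those of Rxrg and Rxra, and in 1.51% of all windows. A match describes the letters of a window and is not a binding site.

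**Figure D1:**
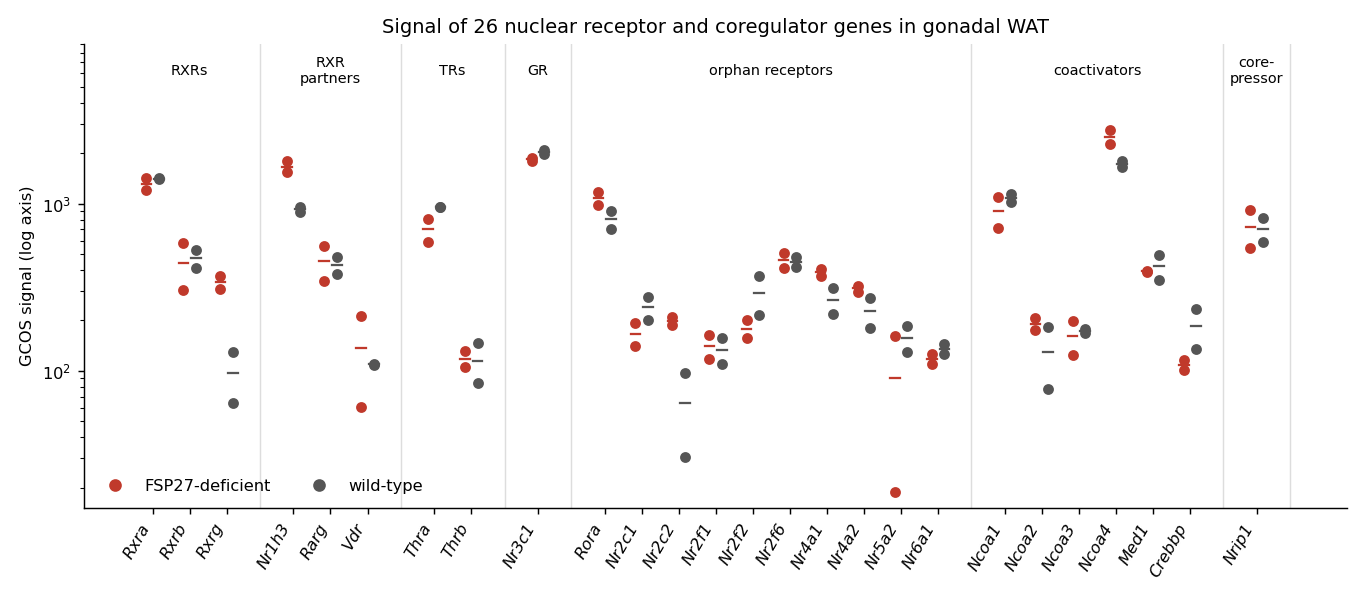
GCOS signal on a log axis for the 26 genes tested, with 1 dot per array and bars at the genotype means (red, FSP27-deficient WAT, left of grey, wild-type WAT). The red dots of Rxrg, at 369 and 308, and of Nr1h3, at 1537 and 1786, lie above the grey ones, at 63.9 and 129 and at 892 and 953, whereas the dots of Rxra, Rxrb, Rarg and Nrip1 overlap.

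Among the RXRs, Rxrg, the family member known from skeletal muscle and thermogenic fat, was higher in FSP27-deficient WAT. Its signal was 369 and 308 in FSP27-deficient WAT and 63.9 and 129 in wild-type WAT, 3.51-fold higher on average. The arrays of the genotypes did not overlap, and the wild-type duplicates lay 0.86 apart on the log2 scale. The log2 ratio was 1.71 (SE 0.42, 95% interval 0.79 to 2.63, adjusted p = 0.020 from limma). The adjusted p was 0.061 without FSP27-deficient replicate 1, 0.12 without wild-type replicate 1 (log2 ratio of 1.28) and 0.074 with no filter on low signals. Rxrg reached the mean signal of 100 through the FSP27-deficient arrays, since its mean in wild-type WAT was 96.5.

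The other RXRs did not pass the test. Rxra, the most widely expressed of them, gave 1209 and 1420 in FSP27-deficient WAT against 1393 and 1430 in wild-type WAT (log2 ratio of -0.11, 95% interval -0.53 to 0.32), and a further probe set read 417 and 287 against 585 and 390. Rxrb gave 304 and 580 against 412 and 528 (log2 ratio of -0.15, interval -0.81 to 0.52). For both genes the arrays of the genotypes overlapped.

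Of 5 brown adipocyte markers tested beside Rxrg, 4 were called higher and none lower, with a summed signal over the 6 on the array of 19481 and 24035 in FSP27-deficient WAT against 1365 and 977 in wild-type WAT. Genes of that list had been picked by the study on these arrays, so their count is no independent evidence. The 9 skeletal muscle markers summed to 1161 and 725 against 1037 and 941. Acta1, skeletal actin, was the 1 tested, at 502 and 269 against 702 and 633 (log2 ratio -0.83, SE 0.29, adjusted p = 0.087 from limma, and called lower without FSP27-deficient replicate 1). Ckm, the muscle creatine kinase, gave 137 and 136 against 25.9 and 68.2 and was not tested. No marker was at 0, and the part of either cell type in the signal of Rxrg was not tested.

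Nr1h3, which encodes the oxysterol receptor LXRα, rose. Its signal was 1537 and 1786 in FSP27-deficient WAT and 892 and 953 in wild-type WAT, 1.80-fold higher on average. The genotypes did not overlap, and the duplicates lay 0.21 apart in FSP27-deficient WAT and 0.09 apart in wild-type WAT on the log2 scale. The log2 ratio was 0.83 (SE 0.20, 95% interval 0.40 to 1.26, adjusted p = 0.016 from limma). The adjusted p was 0.14 without wild-type replicate 1 and 0.086 without wild-type replicate 2, where the log2 ratio was 0.79 and 0.88.

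Nr1h3 is known from macrophages as well as adipocytes. Of 9 macrophage markers tested, 7 were called lower and none higher (4 without wild-type replicate 2), and the 10 on the array summed to 5907 and 7134 in FSP27-deficient WAT against 17013 and 15402 in wild-type WAT. Lyz2, a lysozyme of macrophages, gave 1511 and 1929 against 6707 and 5114. The adipocyte list had 2 of 7 genes called lower, Lep and Cidec, and none higher, and it summed to 168396 and 173130 against 164044 and 166508. The part of either cell type in the signal of Nr1h3 was not tested.

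The remaining RXR partners gave no call. Rarg, a retinoic acid receptor, gave 561 and 344 in FSP27-deficient WAT against 481 and 379 in wild-type WAT (log2 ratio of 0.04, interval -0.57 to 0.65), and a further probe set read 151 and 214 against 345 and 244 (log2 ratio of -0.64, adjusted p = 0.29 over all probe sets). Vdr, the vitamin D receptor, gave 212 and 60.9 against 110.3 and 107.5, so that the FSP27-deficient arrays lay on either side of the wild-type ones (interval -1.34 to 1.51). Nr1h4, the bile acid receptor, and the retinoic acid receptors Rara and Rarb had mean signals under 100 and were not tested. Rara gave 37.9 and 74.2 against 143 and 92.7, and Nr1h4 gave 15.5 and 73.5 against 39.7 and 54.3, and Rarb gave 82.0 and 76.0 against 97.3 and 41.5.

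Thra and Thrb encode the thyroid hormone receptors, and neither passed the test. Thra gave 813 and 587 in FSP27-deficient WAT against 951 and 948 in wild-type WAT. Both of its FSP27-deficient arrays lay below the wild-type ones (log2 ratio of -0.45, interval -0.94 to 0.04, adjusted p = 0.24 from limma). The other probe set went the other way, at 303 and 428 against 361 and 308. Thrb gave 131 and 105 against 146 and 84.2 (log2 ratio of 0.07, interval -1.20 to 1.33).

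Of the steroid receptors, only Nr3c1, the glucocorticoid receptor, reached a mean signal of 100. Its brightest probe set gave 1884 and 1789.8 in FSP27-deficient WAT against 1986 and 2104 in wild-type WAT (log2 ratio of -0.15, interval -0.55 to 0.24, adjusted p = 0.66 from limma). A second bright probe set of Nr3c1 gave 1128 and 1167 against 1851 and 1652, a mean 1.53-fold lower in FSP27-deficient WAT (log2 ratio -0.60, SE 0.20, adjusted p = 0.072 over all probe sets), and a dimmer one gave 219 and 119 against 180.5 and 198. All 3 probe sets had negative log2 ratios, and none passed the threshold. Esr1, the oestrogen receptor α, gave 7.24 and 13.9 against 48.1 and 89.3, and Pgr, the progesterone receptor, gave 61.8 and 45.7 against 49.8 and 18.7. All signals of both genes lay below 100, and no size is given.

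**Figure D2:**
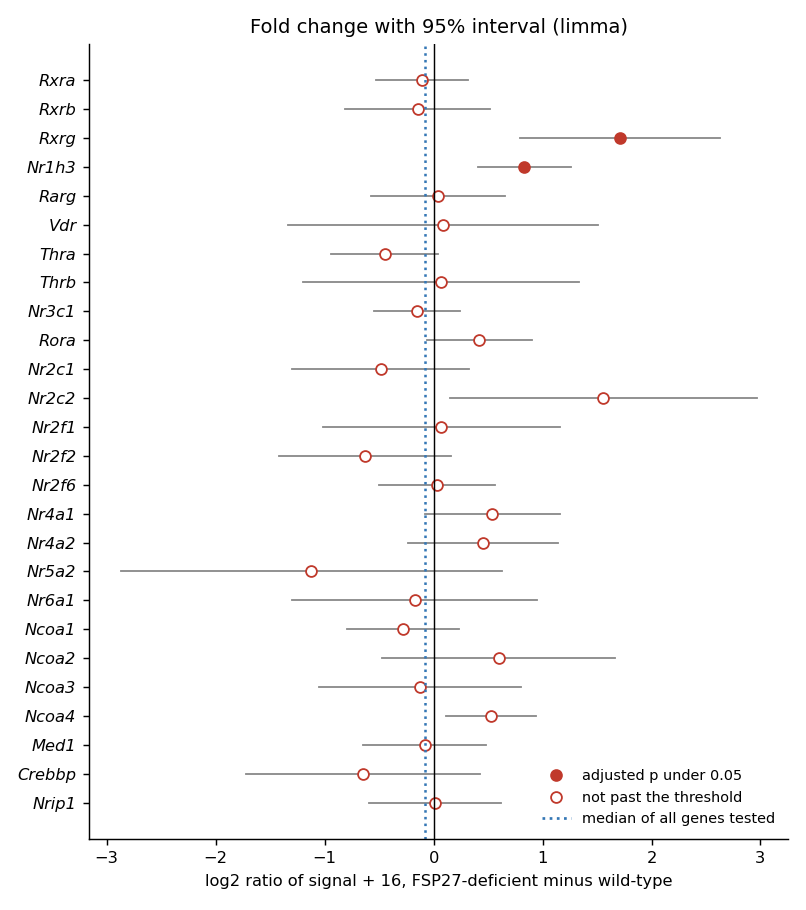
Log2 ratio between FSP27-deficient and wild-type WAT (log2 of signal plus 16, wild-type subtracted) with its 95% interval from limma for each of the 26 genes (filled points passed an adjusted p of 0.05, open points did not). The dotted line marks -0.08, the median over all genes tested. Rxrg, at 1.71, and Nr1h3, at 0.83, are the filled points, and the interval of Nr5a2 lies between -2.87 and 0.63.

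None of the 10 orphan receptors tested passed the threshold, which 12.3% of all genes tested passed in either direction. At an unadjusted p under 0.05 limma had 1 of the 10, Nr2c2, and the t-test 0. Of all 8523 genes tested, 2158 were at that level by limma and 1309 by the t-test. The NR4A receptors Nr4a1 (TR3, or Nur77) and Nr4a2 are switched on by cAMP and by other acute stimuli, in fat as elsewhere. Nr4a1 gave 370.1 and 405 in FSP27-deficient WAT against 310.2 and 219 in wild-type WAT, a mean 1.46-fold higher (log2 ratio of 0.54, interval -0.07 to 1.16, adjusted p = 0.26 from limma). Nr4a2 gave 323 and 298 against 273 and 179.9 by its brightest probe set, with a log2 ratio of 0.45, and 108 and 66.2 against 139.7 and 111 by its other one, with a log2 ratio of -0.48. The genotypes did not overlap for either probe set of Nr4a2, which had opposite directions. Nr4a3 gave 102.8 and 7.60 against 7.56 and 20.4, below the signal required for the test.

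Rora, the retinoic acid receptor-related orphan receptor α, gave 979 and 1178 in FSP27-deficient WAT against 703 and 906 in wild-type WAT by its brightest probe set (log2 ratio of 0.42, interval -0.06 to 0.90, adjusted p = 0.27 from limma). Its next probe set gave 499 and 481 against 447 and 549, which overlap. A dim one, below the signal required for the test, gave 82.7 and 113 against 54.2 and 49.1. Nr2f2 (COUP-TFII), a receptor of vessels and stroma that also acts in adipogenesis, gave 201 and 156 against 371 and 214 (log2 ratio of -0.63, interval -1.42 to 0.16). Its other probe sets had log2 ratios of -0.16 and -0.43, and 1 of 9 endothelial and 4 of 8 fibroblast or preadipocyte markers tested were called lower, with none higher (0 and 1 without wild-type replicate 1). Endothelial markers summed to 6799 and 8088 against 8912 and 10182, and fibroblast markers to 23632 and 25579 against 44232 and 41995, and their part in Nr2f2 was not tested. Nr2f1, Nr2f6 and Nr6a1 had log2 ratios of 0.07, 0.03 and -0.17.

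Nr2c2 (TR4) showed the widest disagreement between probe sets. Its brightest probe set gave 209 and 187 in FSP27-deficient WAT against 30.5 and 97.1 in wild-type WAT (log2 ratio 1.56, SE 0.65, adjusted p = 0.15 from limma). Another gave 7.38 and 14.4 against 110.01 and 94.9, the opposite direction (log2 ratio of -2.15, adjusted p = 0.10 over all probe sets with no filter). Nr2c2 passed the filter through the FSP27-deficient arrays. Another dim one gave 69.1 and 113 against 71.2 and 87.2, and the dimmest gave 21.7 and 20.7 against 8.29 and 4.90. Nr2c1 (TR2), its close relative, gave 141 and 192 against 277 and 202 by 1 probe set and 228 and 80.8 against 52.2 and 182 by the other.

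Nr5a2 (LRH-1) and Nr0b2 (SHP), partners in bile acid signalling in the liver, had FSP27-deficient duplicates far apart. Nr5a2 gave 18.8 and 161 in FSP27-deficient WAT against 129 and 186 in wild-type WAT, a log2 ratio of -1.12 that became 0.05 without FSP27-deficient replicate 1 and -2.30 (adjusted p = 0.038 from limma) without FSP27-deficient replicate 2. Its other 3 probe sets had log2 ratios of 0.08, 0.73 and 0.44. Nr0b2 gave 16.9 and 141 against 20.7 and 13.3 and was not tested.

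**Figure D3:**
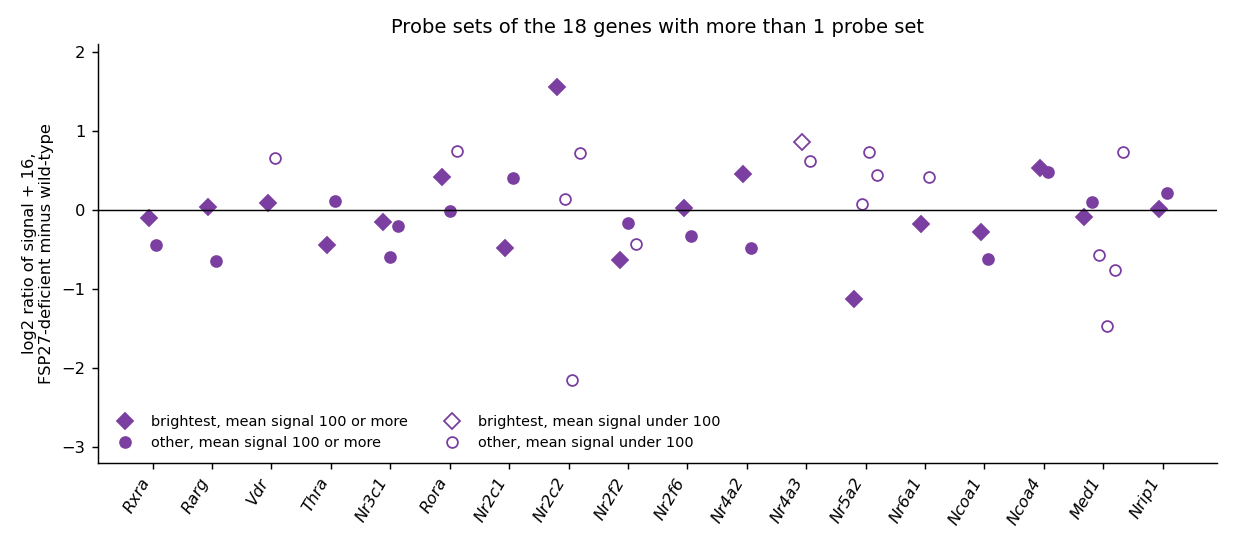
Log2 ratio between FSP27-deficient and wild-type WAT (log2 of signal plus 16, wild-type subtracted) for every probe set of the 18 genes that have more than 1 (diamond, the brightest, and circle, the others, filled where the mean signal was at least 100 and open where it was lower). The probe sets of Ncoa4 lie together, at 0.53 and 0.48, while those of Nr2c2 spread between -2.15 and 1.56.

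Probe sets of the same gene often disagreed in sign. Of 13 genes of the set with more than 1 probe set at a mean signal of at least 100, 7 had probe sets of opposite sign (53.8%), and of 3126 such genes on the array 40.3% did. Rxrg and Nr1h3 have 1 probe set each, so that their rises have no second reading. With every probe set tested on its own, those of Rxrg and Nr1h3 were the 2 called among 40 of the set at a mean signal of at least 100, where 10.6% of all probe sets tested were called.

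Among the coactivators, Ncoa4, an androgen receptor coactivator that also serves as the receptor for ferritin in autophagy, came closest to the threshold. It gave 2767 and 2259 in FSP27-deficient WAT against 1659 and 1802 in wild-type WAT, a mean 1.45-fold higher (log2 ratio 0.53, SE 0.19, adjusted p = 0.095 from limma). A further probe set of it read 2112 and 1854 against 1599 and 1251, a log2 ratio of 0.48. By both probe sets the genotypes did not overlap. Without FSP27-deficient replicate 2 the adjusted p was 0.041, and it was 0.27 to 0.43 with any of the other 3 arrays left out.

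The p160 coactivators Ncoa1, Ncoa2 and Ncoa3 did not pass the test. Ncoa1 (SRC-1) gave 713 and 1099.5 in FSP27-deficient WAT against 1023 and 1139 in wild-type WAT (log2 ratio of -0.28, interval -0.80 to 0.24). A further probe set of it read 437 and 457 against 663 and 730.1, with no overlap (log2 ratio -0.62, SE 0.23, adjusted p = 0.11 over all probe sets). Ncoa2 (TIF2) gave 206 and 174 against 182 and 77.5, and Ncoa3 gave 197 and 124 against 169 and 177.

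Med1, the Mediator subunit that receptors contact, gave 389 and 396 in FSP27-deficient WAT against 350.2 and 495 in wild-type WAT (log2 ratio of -0.08, interval -0.65 to 0.48), and its 5 other probe sets had log2 ratios between -1.47 and 0.73. Crebbp, the acetyltransferase CBP, gave 101 and 116 against 135 and 233, with both FSP27-deficient arrays below both wild-type ones (log2 ratio of -0.65, interval -1.72 to 0.43, adjusted p = 0.47 from limma). Nrip1 (RIP140), a corepressor of oxidative genes in fat, gave 914 and 538 against 587 and 824 (log2 ratio of 0.01, interval -0.59 to 0.62). A further probe set of it read 585 and 595 against 467 and 545 (log2 ratio of 0.22, adjusted p = 0.63 over all probe sets).

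**Figure D4:**
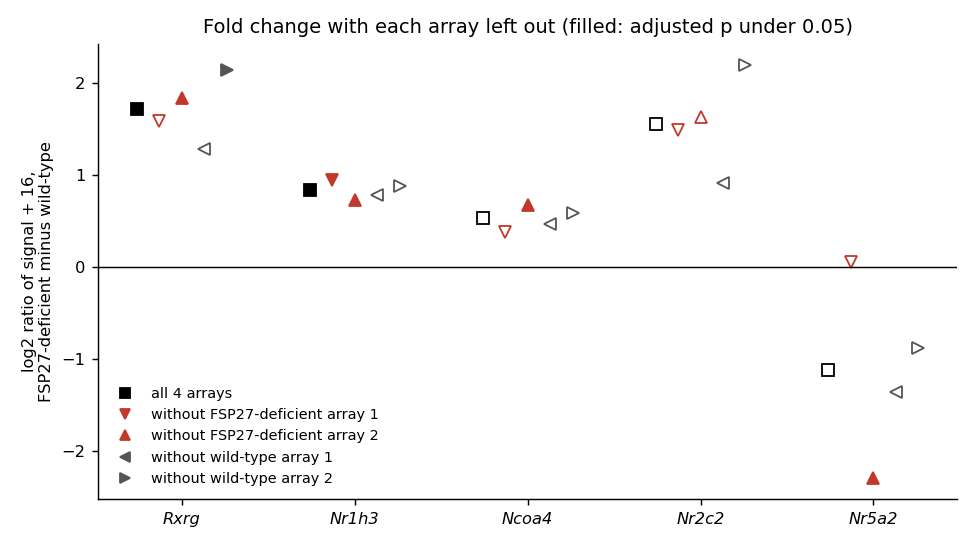
Log2 ratio between FSP27-deficient and wild-type WAT (log2 of signal plus 16, wild-type subtracted) for 5 genes with all arrays (square) and with each of the 4 arrays left out (triangles), filled where the adjusted p from limma was under 0.05. Rxrg lies between 1.28 and 2.14 and Nr1h3 between 0.73 and 0.94 with any array left out, whereas Nr5a2 lies between -2.30 and 0.05.

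The study's fold criterion was read here as mean signals 1.4-fold apart, with each FSP27-deficient array and the same-numbered wild-type array agreeing in direction. By it, 6 of the 26 genes were higher and 4 were lower in FSP27-deficient WAT. Of all genes tested, 14.4% were higher and 20.6% were lower by that criterion, 34.9% together. The 6 were Rxrg, Nr1h3, Nr2c2, Nr4a1, Ncoa2 and Ncoa4, and the 4 were Nr2c1, Nr2f2, Nr5a2 and Crebbp. Ncoa2 and Nr5a2, whose genotypes overlapped, met the criterion only with arrays paired by number. The arrays of the genotypes did not overlap for 13 of the 26 genes, 7 of them higher and 6 lower in FSP27-deficient WAT, a share of 50.0%. They did not overlap for 54.1% of all genes tested, 22.7% higher and 31.4% lower. The duplicates lay more than 1 log2 unit apart for 2 of the 26 genes in FSP27-deficient WAT, Vdr and Nr5a2, and for 2 in wild-type WAT, Nr2c2 and Ncoa2, against 9.12% and 4.05% of all genes tested.

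The genes around these receptors were read from lists of ligand enzymes, targets, chaperones and further coregulators. Beside the counts of these lists, 5.78% of all genes tested were called higher and 6.51% lower. Enzymes and carriers of receptor ligands changed in both directions. Of 12 tested, 4 were called higher and 5 lower (1 and 3 without wild-type replicate 1, 2 and 3 without wild-type replicate 2). Hsd17b12, a 17β-hydroxysteroid dehydrogenase that also elongates fatty acids, gave 10699.7 and 8554 in FSP27-deficient WAT against 2635 and 2849 in wild-type WAT (log2 ratio 1.80, SE 0.17, adjusted p = 8.1e-05 from limma). Dio2, the deiodinase that makes active thyroid hormone, gave 230 and 342 against 88.4 and 78.5 (log2 ratio 1.58, SE 0.44, adjusted p = 0.036, and 0.10 to 0.13 without either wild-type replicate or FSP27-deficient replicate 2). It passed the filter through the FSP27-deficient arrays, and its adjusted p was 0.099 with no filter. Further probe sets of Dio2 had log2 ratios of 2.86 and 0.79.

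Aldh1a2, which makes retinoic acid and marks mesothelium, gave 64.9 and 41.6 in FSP27-deficient WAT against 366 and 182 in wild-type WAT (log2 ratio -2.01, SE 0.58, adjusted p = 0.040 from limma, and 0.16 to 0.59 without either wild-type replicate). It passed the filter through the wild-type arrays, and its adjusted p was 0.085 with no filter. Of 6 mesothelial markers tested, 4 were called lower (2 without wild-type replicate 1), and they summed to 1994 and 1412 against 4826 and 5033. Cyp27a1, which makes the LXR ligand 27-hydroxycholesterol, gave 436 and 463 against 1331 and 1158 (log2 ratio -1.43, SE 0.21, adjusted p = 0.0012). Hsd11b1, which regenerates active glucocorticoid and was named after its values were seen, gave 1678 and 2379.7 against 5153 and 5709 (log2 ratio -1.43, SE 0.20, adjusted p = 7.6e-04).

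Of 17 glucocorticoid targets tested, 5 were called lower and 1 higher, with a median log2 ratio of -0.39 against -0.08 over all genes tested. The metallothionein Mt2 gave 437 and 462 in FSP27-deficient WAT against 2084 and 2965 in wild-type WAT (log2 ratio -2.43, SE 0.22, adjusted p = 5.5e-05 from limma), and Mt1 had a log2 ratio of -1.44. Tsc22d3 (GILZ), a direct target of the glucocorticoid receptor, gave 1390.2 and 1194 against 2775 and 2371 (log2 ratio -0.98, SE 0.19, adjusted p = 0.0058, and 0.088 without wild-type replicate 1). A second probe set of Tsc22d3 had a log2 ratio of -1.01, and another, at 348 and 335 against 136 and 189, had a log2 ratio of 1.02 (adjusted p = 0.065 over all probe sets). Cebpd had a log2 ratio of -1.30 (adjusted p = 0.083 and 0.082 without either wild-type replicate). A dimmer probe set of Cebpd, below the signal required for the test, gave 203 and 29.2 against 36.7 and 112 (log2 ratio of 0.28). The gene called higher was Ddit4, with a log2 ratio of 0.98, named after its value was seen. Without wild-type replicate 1 the counts were 2 lower and none higher.

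Of 13 LXR targets tested beside Nr1h3, 1 was called higher and 2 lower, with a median log2 ratio of 0.01. Lpcat3, an enzyme of phospholipid remodelling, gave 2413 and 1700.1 in FSP27-deficient WAT against 1174 and 1140.3 in wild-type WAT (log2 ratio 0.80, SE 0.21, adjusted p = 0.027 from limma, and 0.13 to 0.15 without FSP27-deficient replicate 1 or either wild-type replicate). The desaturase Scd2 gave 2311 and 1835 against 7138 and 8062 (log2 ratio -1.87, SE 0.18, adjusted p = 8.1e-05), and Scd1 gave 30502 and 20149 against 52363 and 63227 (log2 ratio of -1.21, adjusted p = 0.0018, and 0.059 with no filter). A second probe set of Scd1 gave 2966 and 1409 against 14059.5 and 12120.2, for which the log2 ratio was -2.66 (adjusted p = 8.9e-05 from limma over every probe set). The cholesterol exporters Abca1 and Abcg1 had log2 ratios of -0.01 and 0.04.

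Of 7 thyroid hormone targets tested, Me1, the malic enzyme, was called higher and none lower. It gave 13742 and 13140 in FSP27-deficient WAT against 5115 and 6627 in wild-type WAT (log2 ratio 1.20, SE 0.17, adjusted p = 8.8e-04 from limma), while Thrsp (Spot14) had a log2 ratio of 0.02. None of 4 retinoic acid targets was called, nor was the 1 vitamin D target tested, also at an unadjusted p under 0.05 by limma or the t-test. Of 6 oestrogen and progesterone targets, 1, Igfbp4, was called lower and none higher. Igfbp4 had a log2 ratio of -0.92 (adjusted p = 0.024 from limma, 0.069 to 0.12 without FSP27-deficient replicate 1 or either wild-type replicate, and 0.085 with no filter).

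Immediate early genes, like Nr4a1 and Nr4a2, answer acute stimuli. Of 18 tested, 7 were called lower and none higher, with a median log2 ratio of -0.72. Fos gave 120 and 179 in FSP27-deficient WAT against 411 and 325 in wild-type WAT (log2 ratio -1.23, SE 0.34, adjusted p = 0.033 from limma), and Jun gave 228 and 451 against 840 and 658 (log2 ratio of -1.17, adjusted p = 0.026). A second probe set of Jun had a log2 ratio of -0.73 (adjusted p = 0.12 from limma over all probe sets). Klf6 and Ccn1 had log2 ratios of -1.29 and -1.29, and the further probe sets of Klf6 had log2 ratios of -0.21 and -0.49. With no filter the adjusted p was 0.11 for Fos, 0.077 for Jun and 0.098 for Ccn1. Without wild-type replicate 1 no immediate early gene was called, and without wild-type replicate 2 1 was, with medians of -0.62 and -0.80. Positive log2 ratios were found for 3 of the 18, and also for Nr4a1, at 0.54, and the brightest probe set of Nr4a2, at 0.45. The dimmer Nr4a2 probe set was negative, at -0.48, so the direction of Nr4a2 was not settled. Neither NR4A gene was called by limma.

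**Figure D5:**
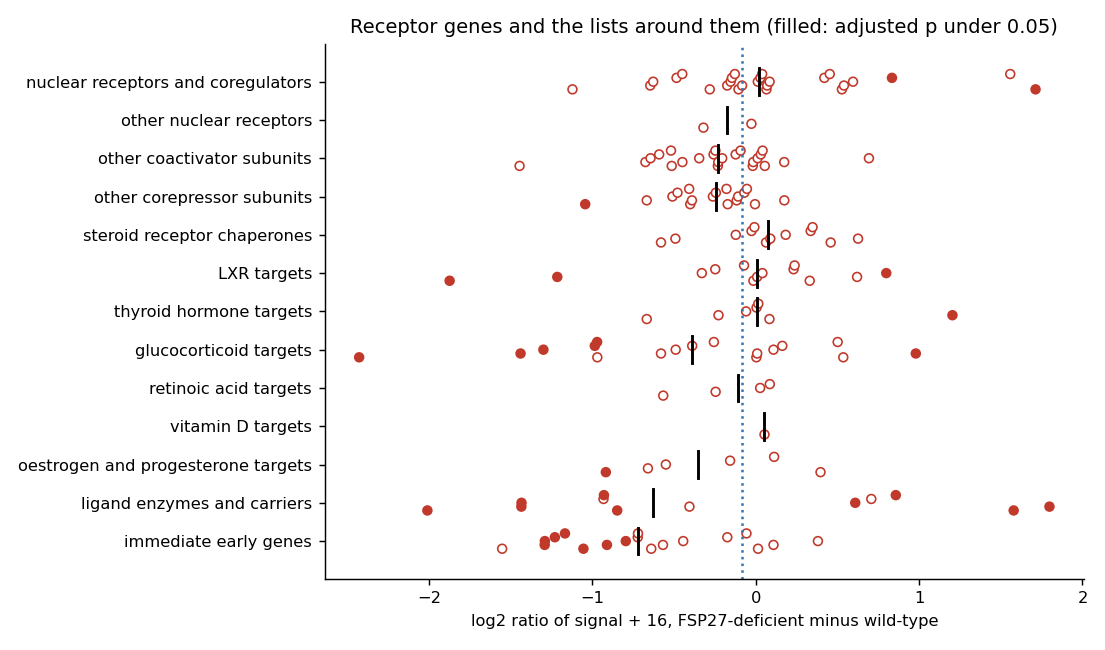
Log2 ratio between FSP27-deficient and wild-type WAT (log2 of signal plus 16, wild-type subtracted), 1 point per gene tested, for the receptor and coregulator set and the lists around it (filled points passed an adjusted p of 0.05 from limma, open points did not). Black bars mark the medians and the dotted line -0.08, the median over all genes tested. The set has 2 filled points, both to the right, and the immediate early genes have 7, all to the left of 0.

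Further subunits of the coregulator complexes gave 1 call. None of 23 other coactivator subunits tested was called by limma, 6 with positive and 17 with negative log2 ratios, and a median of -0.23. Of all 8523 genes tested, 3676 had positive and 4847 negative log2 ratios, with a median of -0.08. At an unadjusted p under 0.05 limma had 1 of the 23 higher and 2 lower, and the t-test had 1 lower. Of all genes tested, 2158 were at that level by limma and 1309 by the t-test. Of 17 other corepressor subunits tested, 1, Rcor1 (CoREST), was called lower, 16 had negative log2 ratios, and the median was -0.24. Rcor1 gave 259.9 and 263 in FSP27-deficient WAT against 522 and 591 in wild-type WAT. Its log2 ratio was -1.04 (SE 0.25, adjusted p = 0.016 from limma, and 0.052 with no filter). That ratio was -1.13 without wild-type replicate 1 and -0.96 without wild-type replicate 2. A further probe set of Rcor1 went the other way with no overlap, at 417 and 443 against 303 and 335. Its log2 ratio was 0.41 (adjusted p = 0.37 from limma over all probe sets). Another probe set of Rcor1 had a log2 ratio of -0.56. Of 28 genes called in these lists, 9 were called with any of the 4 arrays left out.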

How the data were processed

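Signals for 22690 probe sets were made by the authors with GCOS and deposited as an intensity on a linear scale. The sources used here give neither its version nor its scaling target. The platform annotation named genes: 20393 probe sets have 1 symbol, 691 several (not used) and 1606 none. The test used R 4.3.3 and limma 3.58.1 on log2(signal + 16), with eBayes and a trend (2 residual degrees of freedom, 12.1 after moderation), for genes averaging 100 or more, and calls were made at an adjusted p of 0.05. Code was tested on simulated data. The members, lists and tests were chosen with earlier results of these data known. Named genes were all members, Cidec and, per pathway list, up to 4 called genes with the largest change. Other genes named (Adipoq, Fabp4, Lep, Ckm, Acta1, Lyz2, Abca1, Abcg1, Thrsp, Hsd11b1, Ddit4, Esrrg, Hnf4a, Hspa4 and Fkbp5) were chosen after their values were seen. Alternatives tried were other pseudocounts (1 and 64), minimum signals (none and 200), quantile normalization, centring, other choices of probe set, no trend, the methods' t-test, the fold criterion, a replicate block and leaving out each array, in which case a lone array was assumed to vary as the other genotype's did. The small number of arrays limits precision.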

Additional observations from a re-analysis of the deposited data

How the results depend on the processing

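The calls of Rxrg and Nr1h3 needed limma's trend. Without the trend limma called 0 genes of the set higher and 0 lower, with 1 gene higher and 0 lower of all genes, of which 1861 had an unadjusted p under 0.05. After Benjamini-Hochberg adjustment the methods' t-test called 0 of the set and 0 of all genes, higher or lower, with 1309 at an unadjusted p under 0.05. With no filter on low signals 1 gene of the set, Nr1h3, was called higher. By the fold criterion 6 of the set were higher and 4 lower, with 1225 higher and 1753 lower of all genes. With each array left out, genes called higher in the set numbered 0 to 3 and lower 0 to 1, and all genes called higher numbered 216 to 503 and lower 192 to 874, where limma with all arrays called 493 higher and 555 lower. Med1 reversed under quantile normalization (log2 ratio of 0.043), and Nr2f6 (-0.071) and Rarg (-0.18) over the mean of their probe sets. With an array left out, the log2 ratio lay between -0.32 and 0.16 for Med1, -0.59 and 0.026 for Ncoa1, -0.43 and 0.18 for Ncoa3, -0.16 and 0.30 for Nr2f1, -0.11 and 0.17 for Nr2f6, -2.30 and 0.052 for Nr5a2, -0.36 and 0.39 for Nrip1, -0.30 and 0.38 for Rarg, -0.22 and 0.0095 for Rxra, -0.59 and 0.30 for Rxrb, -0.28 and 0.41 for Thrb, and -0.70 and 0.87 for Vdr. None of these 12 genes passed the test with all arrays. Whether same-numbered arrays are paired is not stated, and their deviations correlated by 0.07 across genes. With the replicate block limma called 2 of the set higher and 0 lower, with 635 higher and 831 lower of all genes. The cause of these changes was not tested. Low signals and 2 arrays per genotype limit what can be shown for receptors under a mean signal of 100.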

Other observations

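Of the nuclear receptors outside the set, PPARs, Esrra and clock receptors apart, 10 of those looked for had a probe set and 2, Esrrg and Hnf4a, reached a mean signal of 100. Neither was called by limma, also at an unadjusted p under 0.05, nor by the t-test, with log2 ratios of -0.03 and -0.32. Hnf4a gave 152 and 151 in FSP27-deficient WAT against 208 and 179 in wild-type WAT. Chaperones that hold steroid receptors ready for ligand gave no call by limma among 12 tested, with a median log2 ratio of 0.08. At an unadjusted p under 0.05 limma had 2 of the 12 higher and 1 lower, and the t-test had 1 higher and 1 lower. Among them were Hspa4, at 1909 and 2050.1 against 1023 and 1589 (log2 ratio of 0.63, adjusted p = 0.097 from limma), and the co-chaperone Fkbp5, a glucocorticoid target, at 478 and 447 against 672 and 727 (log2 ratio of -0.58, adjusted p = 0.12), both named after their values were seen.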
